A study of Mus musculus with 2 samples.

Results

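The Mir200 and Mir183 clusters comprise 8 microRNA genes at 3 genomic loci: Mir200b, Mir200a and Mir429, then Mir200c and Mir141, then Mir183, Mir96 and Mir182. They were chosen by gene symbol out of the 2202 microRNA genes in the count tables, and all 8 were found. Small RNA was sequenced from left cerebral cortex of the male B6CASTF1/J mouse, a cross of C57BL/6J and CAST/EiJ parents, at 14 days of age. There was 1 group with 2 libraries, replicate 1 and replicate 2, and no treatment, mutant or control group. Both libraries carry the same donor label, each sample record carries the words 3x Males, and the labels do not say whether the libraries came from separate animals or from pooled tissue. A difference between the libraries, and the p of any test on it, may therefore be technical.

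The miR-200 family is known for keeping cells epithelial, chiefly by repressing the transcription factors Zeb1 and Zeb2, and is abundant in epithelia, including those of the nose. The miR-183 family is known as a marker of sensory cells, such as photoreceptors, hair cells of the inner ear and sensory neurons. Neurons of the cerebral cortex are not a known main site of either family. Members of such a cluster are thought to be cut from a shared precursor transcript, and each hairpin can release a mature form from its 5′ and its 3′ arm. The mature form pairs with target messages mainly through its seed, bases 2 to 8 counted from its 5′ end.

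The mature forms of the arm usually taken as the main product are shown because the seed groups below cut across the clusters. Capitals mark the seed, and the sequences are RefSeq's on GRCm38.p6, the assembly also called mm10. All 8 genes matched an entry with the same coordinates.
miR-200b-3p: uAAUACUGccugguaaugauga
miR-429-3p: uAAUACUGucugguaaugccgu
miR-200c-3p: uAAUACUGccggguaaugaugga
miR-200a-3p: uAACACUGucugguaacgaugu
miR-141-3p: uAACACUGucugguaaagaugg
miR-183-5p: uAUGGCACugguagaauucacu
miR-96-5p: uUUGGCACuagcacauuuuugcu
miR-182-5p: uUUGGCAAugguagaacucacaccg

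The miR-200 forms fall into 2 seed groups. Mir200b, Mir429 and Mir200c carry AAUACUG, and Mir200a and Mir141 carry AACACUG. The groups differ at a single seed base, U4C going from miR-200b-3p to miR-141-3p, with positions counted from 1 at the 5′ end. Each cluster of the family holds members of both groups. In the miR-183 family no seed is shared: miR-96-5p differs from miR-182-5p at C8A and from miR-183-5p at U2A within the seed. Closest in sequence are miR-200a-3p and miR-141-3p, which share their first 16 bases and differ at C17A and U22G, and miR-200b-3p and miR-200c-3p, which differ at U11G and A22G over the 22 positions compared.

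The tables count reads per hairpin and do not separate its arms. The hairpins of Mir200b and Mir200c are given with both annotated mature arms in capitals, because these genes share a seed and differed between the libraries in opposite directions.
Mir200b hairpin: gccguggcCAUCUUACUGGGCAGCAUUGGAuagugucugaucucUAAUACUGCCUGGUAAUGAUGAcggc
Mir200c hairpin: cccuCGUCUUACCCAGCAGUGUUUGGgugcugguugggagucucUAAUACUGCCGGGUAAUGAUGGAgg

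In GENCODE M21 on mm10 the Mir200b (ENSMUSG00000065549.3), Mir200a (ENSMUSG00000065400.1) and Mir429 (ENSMUSG00000065427.1) hairpins lie within 1846 bases of chromosome 4, at 156055681 to 156055750, 156054896 to 156054985 and 156053905 to 156053987. All 3 are on the minus strand in introns of Ttll10, and Mir429 also overlaps an exon of Gm13648, a non-coding gene. Mir200c (ENSMUSG00000065462.3; 124718322 to 124718390) and Mir141 (ENSMUSG00000065474.1; 124717914 to 124717985) lie within 477 bases of chromosome 6, minus strand, in an intron of the non-coding gene Gm15884, between Phb2 and Ptpn6. Mir141 also overlaps an exon of Gm29008. Mir183 (ENSMUSG00000065619.2; 30169668 to 30169737), Mir96 (ENSMUSG00000065586.1; 30169446 to 30169551) and Mir182 (ENSMUSG00000076361.1; 30165918 to 30165992) lie within 3820 bases elsewhere on chromosome 6, minus strand, where no other gene overlaps them. The nearest protein-coding gene is Nrf1, 12460 bases away.

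Gene rows held 4111167 counts in replicate 1 and 3189903 in replicate 2, and levels below are counts per 1000000 of these totals (CPM). Reads that matched several genomic positions, 39.1% of all reads in replicate 1 and 41.4% in replicate 2, are in no gene row. Mature microRNAs are of similar length and each read stands for a whole molecule or most of it, so levels were not divided by length. Among 13 listed microRNAs of cortical neurons, all had counts in both libraries, and they summed to 48872 CPM in replicate 1, against 56732 in replicate 2. Some of them had few counts: Mir124a-1 had 9 in replicate 1 and 19 in replicate 2. Mir124a-2 had 11 in replicate 1 and 3 in replicate 2, and Mir124a-3 had 2 in replicate 1 and 8 in replicate 2. Mir9-2 had 1 in replicate 1 and 9 in replicate 2. Whether reads of these genes were lost to several positions was not tested, and the sum may be too low. A count of 0 was taken to allow up to 3 counts, or 0.730 CPM in replicate 1 and 0.940 in replicate 2. Intervals and these limits cover counting error only, since no molecular identifiers are named for these reads and some may be copies of 1 molecule.

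All 8 genes together were a trace of the cortical profile. In bulk tissue, fewer cells of a type and less RNA per cell cannot be told apart. They had 299 counts, or 72.7 CPM, in replicate 1 (Clopper-Pearson 95% interval 64.7 to 81.5) and 388 counts, or 122 CPM, in replicate 2 (109.8 to 134). Their mean was 97.2 ± 34.6 CPM (SD, n = 2). The miR-200 family held most of this, with 53.5 CPM in replicate 1 and 108 in replicate 2. The miR-183 family had 19.2 CPM in replicate 1 (15.2 to 23.9) and 13.8 CPM in replicate 2 (10.02 to 18.5). Of the 8 genes, 7 had a count in both libraries, 6 had at least 10 counts summed over both and 5 had at least 10 in each. In the series as a whole 1421 of 2202 genes (64.5%) had 0 counts in both libraries.

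**Figure D1:**
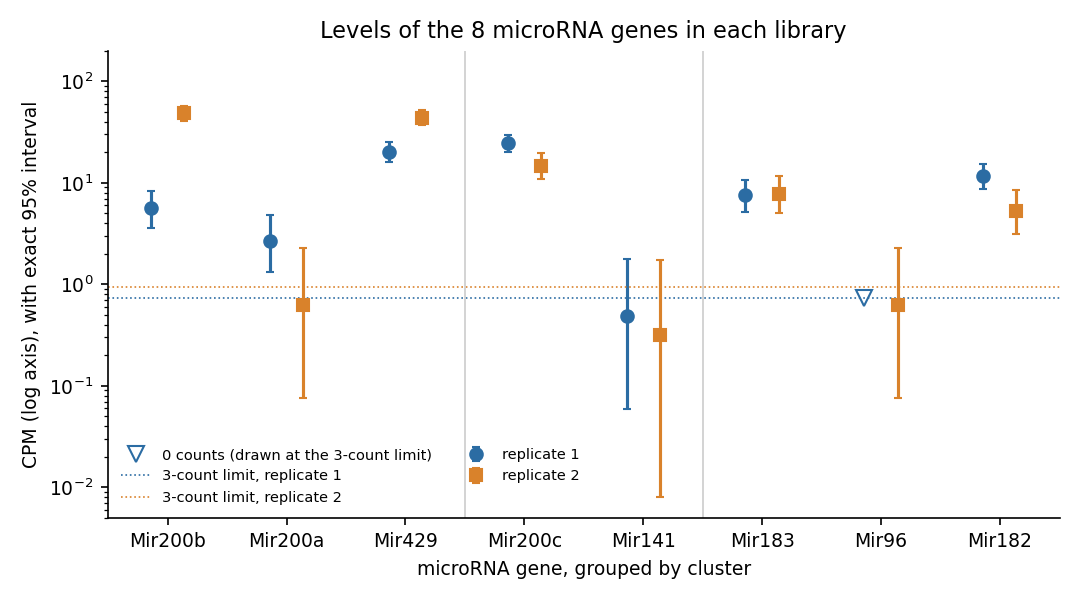
Level of each gene in each library in CPM on a log axis, with exact 95% intervals for counting error (circles, replicate 1; squares, replicate 2; dotted lines, the limit of 3 counts per library; the triangle marks 0 counts). Mir200b, Mir429, Mir200c, Mir182 and Mir183 lie above 5 CPM in both libraries. Mir141 in both libraries, and Mir96 and Mir200a in replicate 2, lie below the limit, with intervals that reach above it.

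Ordered by mean level, Mir429 came first at 32.0 ± 16.8 CPM (SD, n = 2), followed by Mir200b at 26.9 ± 30.2 CPM and Mir200c at 19.7 ± 6.95 CPM. These 3 changed places between the libraries, and their ranges overlapped from each to the next. Mir182 at 8.50 ± 4.49 CPM and Mir183 at 7.69 ± 0.210 CPM lay below all 3 in mean level, and also overlapped each other. The range of Mir200c did not overlap that of Mir182, but their counting intervals did. These were 10.8 to 19.6 CPM for Mir200c in replicate 2 and 8.61 to 15.5 CPM for Mir182 in replicate 1. Mir200a followed at 1.65 ± 1.45 CPM, below the range of Mir183. The ranges of Mir200a and Mir141 did not overlap either, but these rest on 1 to 11 counts and their counting intervals did. Mir141 (0.400 ± 0.122 CPM) and Mir96 (0.313 ± 0.443 CPM) were last and were not told apart. Among all 2202 genes these means ranked from 263 for Mir429 to 661 for Mir96.

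In the chromosome 4 cluster, Mir200b had 23 counts in replicate 1 and 154 in replicate 2, which is 5.59 CPM in replicate 1 (3.55 to 8.39) against 48.3 CPM in replicate 2 (41.0 to 56.5). Mir200b is known as a repressor of Zeb1 and Zeb2. Its log2 ratio of replicate 1 over replicate 2 was -3.11 (exact 95% interval -3.81 to -2.47), so replicate 2 was 8.63-fold higher (5.55 to 14.0). The split passed the two-sided exact binomial test against the library totals with Benjamini-Hochberg adjustment over 521 genes (adjusted p = 3.30e-32). That test compares 2 libraries by read sampling alone and compares no conditions, and 48.8% of the 521 genes passed it. Only 3 of the 521 tested genes had a larger absolute ratio: Mir26a-2 (-4.86), Mir1251 (3.79) and Mir9-2 (-3.54, interval -8.99 to -0.68, on 1 count in replicate 1 and 9 in replicate 2), named after their values were seen. How many reads of these 3 genes were lost to several positions was not tested. Among the 75 other tested genes with summed counts within 2-fold of those of Mir200b, 1 had a larger absolute ratio.

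Mir429, the third hairpin of that cluster, had 83 counts in replicate 1 and 140 in replicate 2, or 20.2 CPM in replicate 1 (16.1 to 25.0) against 43.9 CPM in replicate 2 (36.9 to 51.8). Replicate 2 was again the higher library, by 2.17-fold (1.65 to 2.89; log2 ratio -1.12; adjusted p = 5.18e-08, exact binomial test). Mir200a, which lies between Mir200b and Mir429 and carries the other seed, had 11 counts in replicate 1 and 2 in replicate 2. That is 2.68 CPM in replicate 1 (1.34 to 4.79) against 0.627 CPM in replicate 2 (0.0759 to 2.26). The count in replicate 2 is within the limit of 3 counts. Here replicate 1 was the higher library, the opposite of the hairpins on each side, but on few counts: the log2 ratio was 2.09 with an interval of -0.10 to 5.31, and the split missed the threshold (adjusted p = 0.0933, exact binomial test). With strand ignored, 2 counts on the opposite strand in replicate 1 are added, and Mir200a then passed it (log2 ratio 2.33, adjusted p = 0.0400, exact binomial test). No gene is annotated on the opposite strand at Mir200a. Over the alternatives in which it was tested its adjusted p ranged from 0.0400 to 0.168.

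The make-up of the chromosome 4 cluster differed between the libraries by more than counting error. Mir200b held 19.7% of its counts in replicate 1 and 52.0% in replicate 2, with exact 95% intervals of 12.9 to 28.0% in replicate 1 and 46.2 to 57.8% in replicate 2. Mir429 held 70.9% in replicate 1 (61.8 to 79.0%) and 47.3% in replicate 2 (41.5 to 53.2%). Mir200a held 9.40% in replicate 1 (4.79 to 16.2%) and 0.676% in replicate 2 (0.0819 to 2.42%). The intervals of the 2 libraries did not overlap for any of these shares. The shares are parts of 1 whole, so a rise in one lowers the others and they are not separate observations. Splits beyond read sampling were common, at 48.8% of the 521 tested genes (exact binomial test). How often other clusters differ in make-up was not tested. Per count of Mir200a there were 2.09 counts of Mir200b in replicate 1 (0.979 to 4.75) and 77.0 in replicate 2 (lower bound 21, upper bound 642). The value for replicate 2 rests on 2 counts of Mir200a. Summed, the cluster had 28.5 CPM in replicate 1 (23.5 to 34.1) and 92.8 CPM in replicate 2 (82.5 to 104), a log2 ratio of -1.71 (-2.03 to -1.39).

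In the chromosome 6 cluster of the same family, Mir200c carried nearly all counts. It had 101 counts in replicate 1 and 47 in replicate 2, or 24.6 CPM in replicate 1 (20.0 to 29.9) against 14.7 CPM in replicate 2 (10.8 to 19.6). Replicate 1 was the higher library by 1.67-fold (1.17 to 2.41; log2 ratio 0.74; adjusted p = 0.00878, exact binomial test). Mir141, its partner, had 2 counts in replicate 1 and 1 in replicate 2, within the limit of 3 counts in both, so no ratio between libraries is given and the gene was not tested. Mir200c held 98.1% of the cluster's counts in replicate 1 (93.2 to 99.8%) and 97.9% in replicate 2 (88.9 to 99.9%), so this cluster's make-up was close in both libraries, within wide limits for Mir141. The summed cluster stood at 25.1 CPM in replicate 1 against 15.0 in replicate 2, and its log2 ratio was 0.74 (0.23 to 1.26).

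**Figure D2:**
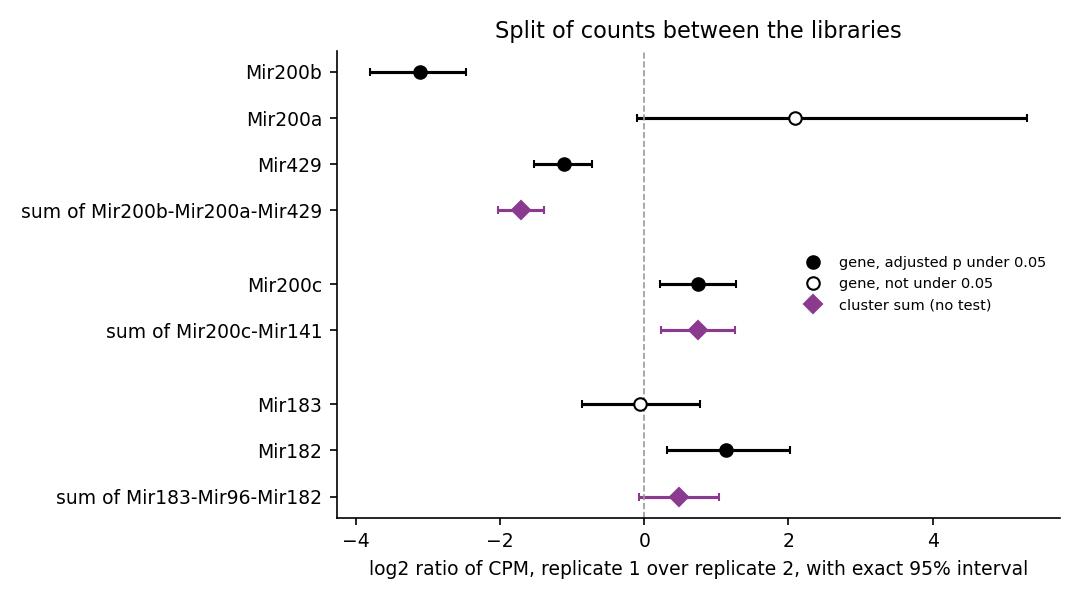
Log2 ratio of CPM, replicate 1 over replicate 2, for the 6 tested genes (circles, filled where adjusted p is under 0.05) and for the cluster sums (diamonds, not tested), with exact 95% intervals for counting error. Mir200b and Mir429 lie left of 0, Mir200c and Mir182 right of it, and the intervals of Mir200a and Mir183 include 0.

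Grouped by seed, the AAUACUG genes made up 94.1% of miR-200 family counts in replicate 1 (90.1 to 96.8%) and 99.1% in replicate 2 (97.5 to 99.8%). They summed to 50.4 CPM in replicate 1 (43.7 to 57.7) and 107 CPM in replicate 2 (95.9 to 119). The AACACUG genes summed to 3.16 CPM in replicate 1 (1.68 to 5.41) and 0.940 CPM in replicate 2 (0.194 to 2.75). Members with the same seed were called in opposite directions: Mir200b and Mir429 were higher in replicate 2 and Mir200c in replicate 1. Within the family, Mir200b held 10.5% of counts in replicate 1 and 44.8% in replicate 2, Mir200c held 45.9% in replicate 1 and 13.7% in replicate 2, and Mir429 held 37.7% in replicate 1 and 40.7% in replicate 2. Per count of Mir200b there were 4.39 counts of Mir200c in replicate 1 (2.77 to 7.24) and 0.305 in replicate 2 (0.215 to 0.426).

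**Figure D3:**
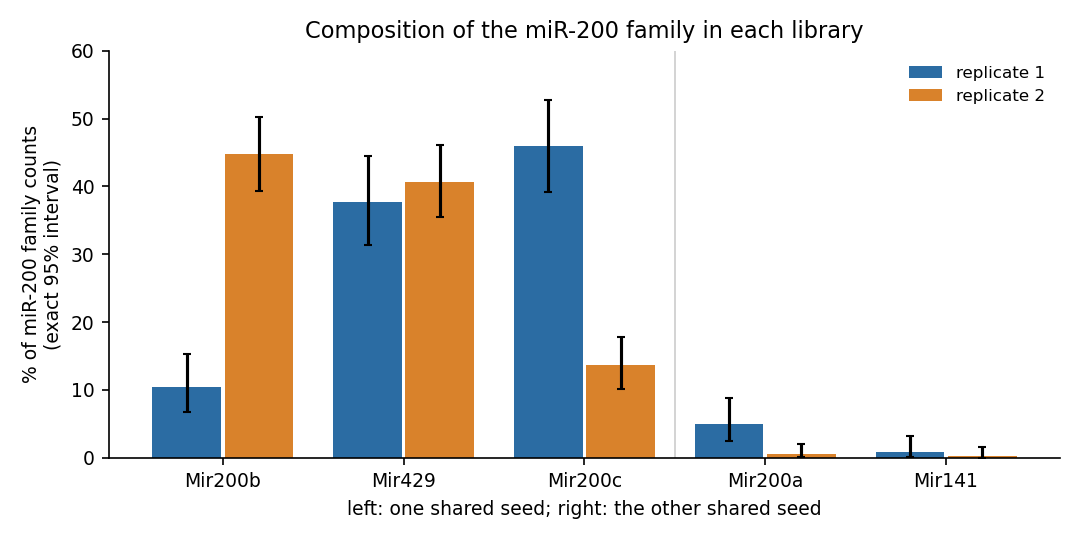
Share of the miR-200 family counts held by each member in each library, in percent with exact 95% intervals (blue, replicate 1; orange, replicate 2; the line divides the AAUACUG genes on the left from the AACACUG genes on the right). Mir200b and Mir200c trade places between the libraries, with Mir200b at 10.5% in replicate 1 and 44.8% in replicate 2 and Mir200c at 45.9% in replicate 1 and 13.7% in replicate 2, while Mir200a and Mir141 are at or below 5.00%.

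Uniqueness of sequence bears on these low counts, since a read that matches several positions is counted nowhere. Against the 2202 microRNA hairpins of the annotation, on both strands, the longest stretch shared with another hairpin was 17 bases for Mir200a and Mir141, which share it with each other, and 14 bases for Mir200b and Mir200c, likewise. For Mir429 it was 13 bases, for Mir183 14, and for Mir96 and Mir182 11. The whole main mature form of each gene occurred in no other gene's transcript among 141767 annotated transcripts, apart from transcripts that overlap the hairpin itself, Gm13648 at Mir429 and Gm29008 at Mir141. Intergenic and intronic sequence was not searched. How many reads of miR-200a and miR-141 were lost to several positions was not tested.

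In the miR-183 cluster, Mir182, the member linked in mouse to photoreceptor upkeep, had 48 counts in replicate 1 and 17 in replicate 2. That is 11.7 CPM in replicate 1 (8.61 to 15.5) against 5.33 CPM in replicate 2 (3.10 to 8.53), with replicate 1 higher by 2.19-fold (1.24 to 4.06; log2 ratio 1.13; adjusted p = 0.00948, exact binomial test). Mir183 had 31 counts in replicate 1 and 25 in replicate 2, or 7.54 CPM in replicate 1 (5.12 to 10.7) against 7.84 CPM in replicate 2 (5.07 to 11.6). Its log2 ratio was -0.06, with an interval of -0.86 to 0.77 that leaves room for a difference of up to 1.82-fold (adjusted p = 0.952, exact binomial test).

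Mir96, in which seed mutations cause progressive hearing loss in mice and people, had 0 counts in replicate 1. That was taken to allow up to 0.730 CPM, while its exact 95% interval reached 0.897 CPM. In replicate 2 Mir96 had 2 counts, or 0.627 CPM (0.0759 to 2.26). It was not tested and no ratio is given. It held 0% of the cluster's counts in replicate 1 (exact 95% interval up to 4.56%) and 4.55% in replicate 2 (0.555 to 15.5%), although it lies between Mir183 and Mir182. Mir182 held 60.8% in replicate 1 (49.1 to 71.6%) and 38.6% in replicate 2 (24.4 to 54.5%), and these intervals overlap. The cluster sum had a log2 ratio of 0.48 (-0.07 to 1.04), and without Mir182 it was -0.17.

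Of the 6 tested members, 4 differed between the libraries past the exact binomial test, 2 higher in replicate 1 (Mir200c and Mir182) and 2 higher in replicate 2 (Mir200b and Mir429). Such a call was common in these libraries. Of all 521 tested genes 254 were called (48.8%), 28.8% of the tested genes as higher in replicate 1 and 20.0% as higher in replicate 2, so the members' count of calls is no result about them. Calls were fewer among genes of like abundance: of the other tested genes with summed counts within 2-fold of a member's, 37.5% were called for Mir429, 36.6% for Mir200c, 34.7% for Mir200b, 19.4% for Mir183, 19.3% for Mir182 and 8.85% for Mir200a. In these sets a larger absolute ratio than the member's was found in 7 of 72 genes for Mir429, 21 of 82 for Mir200c, 7 of 88 for Mir182, 11 of 113 for Mir200a and 90 of 98 for Mir183. The median absolute log2 ratio was 1.13 over the 6 tested members and 0.37 over all tested genes, which include far more abundant genes. The median log2 ratio was 0.34 over the tested members and 0.12 over all tested genes. With library sizes from TMM every log2 ratio moved by -0.15, and the calls over all genes became 93 higher in replicate 1 and 140 higher in replicate 2, against 150 higher in replicate 1 and 104 higher in replicate 2 with library totals. The 4 members called with library totals kept their call and direction there, at log2 ratios of -3.25 for Mir200b, -1.27 for Mir429, 0.59 for Mir200c and 0.99 for Mir182. With TMM sizes Mir200c and Mir182 came near the threshold (adjusted p = 0.0438 for Mir200c and 0.0369 for Mir182, exact binomial test).

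**Figure D4:**
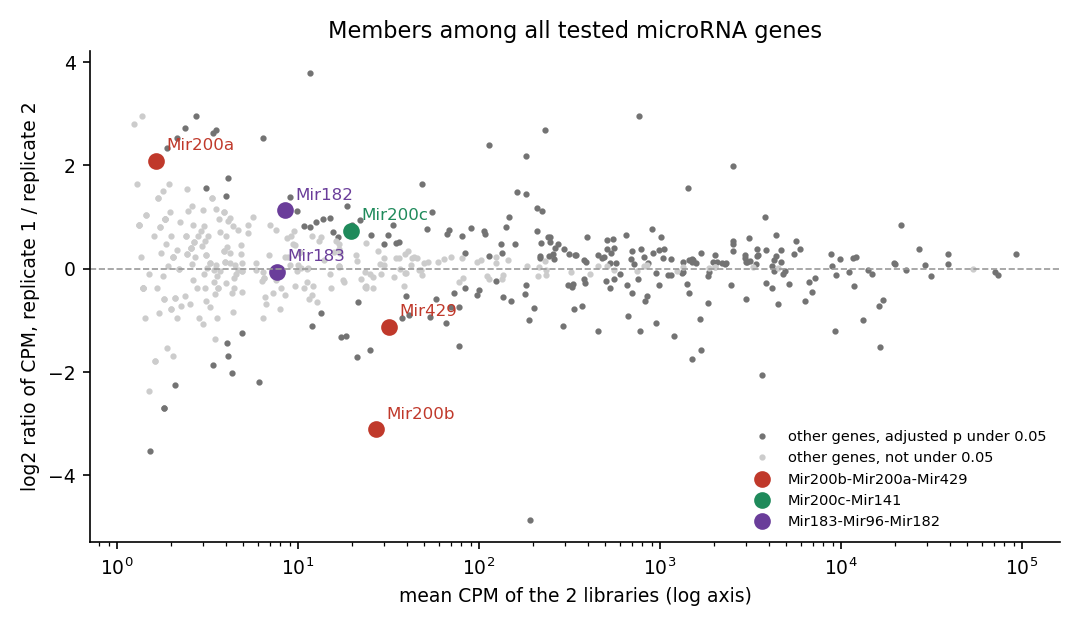
Log2 ratio of CPM, replicate 1 over replicate 2, against mean CPM on a log axis for the 521 tested genes (grey, darker where adjusted p is under 0.05), with the 6 tested members in the colour of their cluster. Mir200b at -3.11 lies at the lower edge of the genes, Mir429 is also below 0, and Mir200c, Mir182 and Mir200a are above it.

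With 2 libraries the only pattern across samples is this ratio, and the genes nearest in ratio were looked up among 307 others with at least 100 counts. Nearest to Mir429 were Mir16-1 (log2 ratio -1.11), Mir375 (-1.05) and Mir195a (-1.04). Nearest to Mir200c were Mir136, Mir7-1 (both 0.74) and Mir214 (0.75). Nearest to Mir182 were Mir500 (1.12), Mir1264 (1.09) and Mir7-2 (1.18). Mir16-1, Mir7-1 and Mir7-2 have mature forms with further genomic copies, so their counts can be too low.

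Markers of cell types other than cortical neurons were set beside the clusters. The list of other epithelial microRNAs summed to 639 CPM in replicate 1 and 1238 in replicate 2, with 5 of 7 members having counts in each library. Mir194-1 and Mir215 were at 0 in both, and any of their reads that matched several positions would be in no gene row. Mir31, found in skin and other epithelia, made up most of it, at 468 CPM in replicate 1 and 1085 in replicate 2 (log2 ratio -1.21), so it was higher in the same library as Mir200b and Mir429. The direction of the sum rested on Mir31: without it the list had 171 CPM in replicate 1 against 153 in replicate 2, and its log2 ratio was 0.16, with an interval of -0.01 to 0.33. Of the 5 tested genes, 1 was called higher in each library, beside 28.8% of all tested genes called higher in replicate 1 and 20.0% in replicate 2. Mir203, the microRNA of stratified skin epithelium, was at 123 CPM in replicate 1 and 104 in replicate 2 (0.24; adjusted p = 0.0382, exact binomial test). Mir194-2, from gut and kidney epithelium, was at 32.1 CPM in replicate 1 and 27.9 in replicate 2 (0.20) and did not pass the test.

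The choroid plexus and ciliated cell list summed to 945 CPM in replicate 1 and 1316 in replicate 2, with counts for 6 of 7 members in each library and Mir449b at 0. Mir204 of the choroid plexus had 582 CPM in replicate 1 and 727 in replicate 2. Mir34c had 247 CPM in replicate 1 against 423 in replicate 2 and Mir449a had 110 CPM in replicate 1 against 160 in replicate 2, and both are known from multiciliated cells. These 3 of 4 tested genes passed the test as higher in replicate 2, as did 20.0% of all tested genes, and none was called higher in replicate 1.

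The endocrine list summed to more in replicate 1, at 4201 CPM in replicate 1 and 2798 in replicate 2, with counts for 7 of 7 members. Its genes were called in both directions: of 7 tested, 3 were higher in replicate 1 and 2 in replicate 2. Among all tested genes these calls made up 28.8% for replicate 1 and 20.0% for replicate 2. The sum was carried by the Mir7 genes. Mir7b (3714 CPM in replicate 1 against 2469 in replicate 2), Mir7-2 (290 CPM in replicate 1 against 128 in replicate 2) and Mir7-1 (133 CPM in replicate 1 against 79.6 in replicate 2), which neurons also express, were higher in replicate 1. Mir375, of islet and pituitary cells, had 43.1 CPM in replicate 1 and 89.3 in replicate 2 and was higher in replicate 2, as was Mir217 (log2 ratio -0.65; adjusted p = 0.0129, exact binomial test), named after its values were seen.

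The eye and lens list, in which Mir204 and Mir211 recur, summed to 654 CPM in replicate 1 and 812 in replicate 2, with counts for 3 of 3 members. Mir184 of the lens and cornea had 70.3 CPM in replicate 1 against 84.3 in replicate 2, and Mir211 had 1.46 CPM in replicate 1 against 0.313 in replicate 2. The blood list summed to 75.9 CPM in replicate 1 and 112 in replicate 2, with counts for all 3 matched members. Of these, Mir451a had 37.0 CPM in replicate 1 against 70.5 in replicate 2, Mir486 had 24.3 CPM in replicate 1 against 26.0 in replicate 2 and Mir144 had 14.6 CPM in replicate 1 against 15.7 in replicate 2. Of the cortical neuron list, Mir132 had 12230 CPM in replicate 1 and 20125 in replicate 2, Mir128-1 had 14046 CPM in replicate 1 against 14259 in replicate 2, and Mir137 had 10488 CPM in replicate 1 against 9204 in replicate 2. Of the 13 tested genes of this list 3 were called higher in replicate 1 and 8 in replicate 2. Over all tested genes 28.8% were called higher in replicate 1 and 20.0% in replicate 2. With high counts small ratios passed the test, and Mir128-1 was called at a log2 ratio of -0.02. Without Mir132 the sum of the cortical neuron list was 36642 CPM in replicate 1 against 36607 in replicate 2. Without Mir451a the blood list had 38.9 CPM in replicate 1 against 41.7 in replicate 2. Each of the 3 cluster sums lay below every one of these lists in both libraries, but such sums depend on how many genes are grouped. All 8 members together lay below the blood list in replicate 1 (72.7 CPM) and above it in replicate 2 (122 CPM). The part of these cell types in the split of the clusters was not tested.

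**Figure D5:**
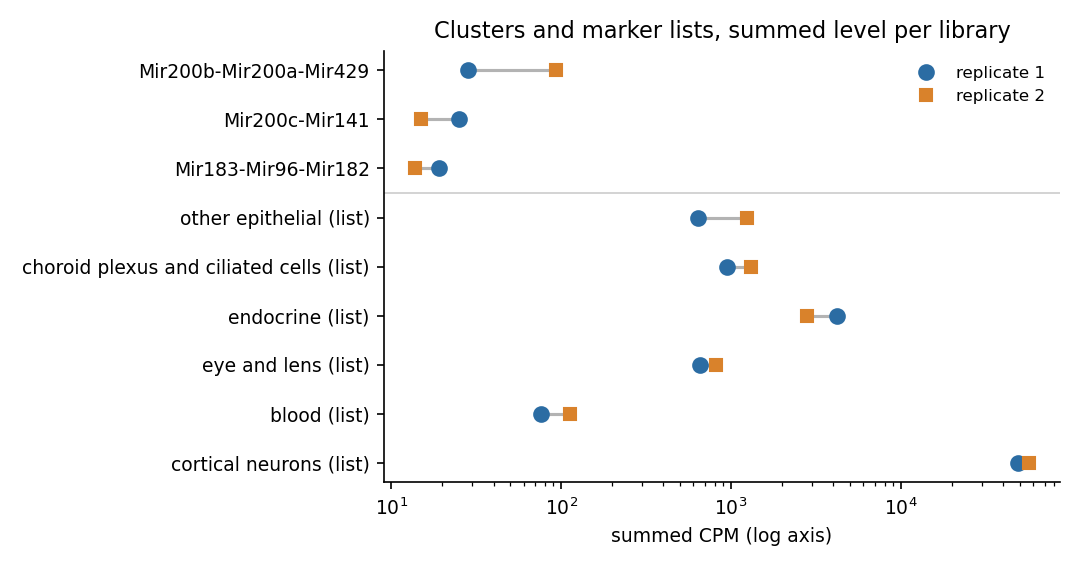
Summed CPM on a log axis of the 3 clusters (above the line) and the 6 marker lists (below it), with replicate 1 as circles and replicate 2 as squares joined by a line. The chromosome 4 cluster, at 28.5 CPM in replicate 1 and 92.8 in replicate 2, is higher in replicate 2, as are the other epithelial, choroid plexus and ciliated cell, eye and lens, blood and cortical neuron lists, while the other 2 clusters and the endocrine list are higher in replicate 1. Without Mir31 the other epithelial list is higher in replicate 1 (log2 ratio 0.16, interval -0.01 to 0.33), and without Mir132 the cortical neuron list is about equal in both. Without Mir451a the interval of the blood list includes 0 (-0.44 to 0.24), as does that of the eye and lens list without Mir204 (-0.48 to 0.01).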

How the data were processed

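The deposited tables hold raw read counts per microRNA gene in 3 columns (strand ignored, strand of the gene, opposite strand), with no normalization by the authors. The descriptions deposited beside them name mm10 and GENCODE M21, and no source used here names the aligner or counter. All 2202 gene IDs matched microRNA genes of GENCODE M21. The gene-strand counts were scaled to the total over gene rows (CPM). The 4 leading rows of no gene, 63.4% of reads in replicate 1 and 63.6% in replicate 2, were left out. Genes with at least 10 counts summed over both libraries were tested by a two-sided exact binomial test of their split against that of the totals, with Benjamini-Hochberg adjustment over all tested genes and a threshold of 0.05 (scipy 1.17.1, statsmodels 0.14.6). Ratios are replicate 1 over replicate 2. With 2 libraries of 1 group, edgeR's quasi-likelihood test could not be fitted, and no exact test over samples can give a p below 0.5. Library sizes by TMM (edgeR 4.0.16) and DESeq2 1.42.0 were alternatives, beside other count minimums, a threshold of 0.01, all reads as total, leaving out Mir139, strand-ignored counts, 1 added count, and leaving out a replicate or a cluster's leading gene. TMM on genes with at least 10 counts in each library and marker list sums without their most abundant gene were added after seeing the data. Named genes were all members, the 3 genes nearest in ratio to each cluster's leading member, and the 3 highest of each marker list. The members and lists were chosen with earlier results of these data known. The test was run on simulated counts that varied by read sampling alone, so this run says nothing of further variation between libraries. Of the blood list, Mir486b was not matched.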

Additional observations from a re-analysis of the deposited data

How the results depend on the processing

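The 4 calls (Mir200b, Mir429, Mir200c, Mir182) kept their direction under every alternative run, and their side of the threshold under each that gave an adjusted p. The adjusted p (exact binomial test) ranged from 0.00530 to 0.0438 for Mir200c and from 0.00767 to 0.0369 for Mir182. Of 53 values of single tested members with an adjusted p under alternatives, 52 kept their direction and call, and the exception was Mir200a with strand ignored (log2 ratio 2.33, adjusted p = 0.0400, exact binomial test). With 1 count added to each library no test was made, and all 6 tested members kept their direction. Against a total of all reads the summed level was 35.5 CPM for all members, 22.1 CPM for the Mir200b cluster, 7.33 CPM for Mir200c and Mir141 and 6.03 CPM for the Mir183 cluster, since that total is larger. Without Mir429 the log2 ratio of its cluster was -2.56, and without Mir182 that of its cluster was -0.17, as follows from the genes left out. Marker list sums without their most abundant gene were an alternative chosen after seeing the data. Their log2 ratios were 0.16 for the other epithelial list and 0.00 for cortical neurons (against -0.95 and -0.22 with all genes). The other 4 lists kept their direction. Of these, the interval included 0 for the eye and lens list (-0.24, -0.48 to 0.01) and the blood list (-0.10, -0.44 to 0.24). With TMM sizes 93 genes were called higher in replicate 1, against 150 with library totals. TMM on genes with at least 10 counts in each library, chosen after seeing the data, gave 116 higher in replicate 1 and 122 higher in replicate 2. DESeq2 size factors gave 102 higher in replicate 1 and 136 higher in replicate 2. Leaving out either replicate gave 5 to 6 members with 10 counts, and sums of 72.7 to 122 CPM for all members, 28.5 to 92.8 CPM for the Mir200b cluster, 15.0 to 25.1 CPM for the Mir200c cluster and 13.8 to 19.2 CPM for the Mir183 cluster. With 2 libraries these ranges are the libraries themselves and say nothing of stability. The cluster of Mir200c without its leading member had too few counts for a value. No paired analysis was possible because there is 1 group. Depth limits Mir141 and Mir96 most: 1 count is 0.243 CPM in replicate 1 and 0.313 CPM in replicate 2.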
